A study of Mus musculus with 8 samples.

Results

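Transcripts of the ionotropic and metabotropic glutamate receptors, the GABA receptors and the glycine receptors were examined in the retina of mice with oxygen-induced retinopathy. Members were the table's genes with a standard mouse symbol for a subunit of these families, Gria, Grik, Grin, Grid, Grm, Gabr, Gabbr and Glr. The metabotropic glutamate receptor gene Grm6 was left out, and 51 of 57010 listed genes were taken. The samples were 8 retinal RNA libraries from C57BL/6J mice aged 17 days. All 8 came from oxygen-induced retinopathy, in which neonatal exposure to high oxygen is followed by pathological vessel growth in room air. The 4 control libraries came from retinas that received a control scAAV (self-complementary adeno-associated virus, a gene delivery vector), and the 4 knockdown libraries from retinas that received an scAAV against the long noncoding RNA MM2P. The treatment label of the knockdown group reads AAV KO, whereas the design text speaks of a knockdown. The promoter and the cells reached by the vector were not given in the labels, and neither was whether replicates are separate animals, so p-values measure only the spread between these samples.

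Glutamate carries the vertical pathway of the retina, from photoreceptors to bipolar cells and on to amacrine and ganglion cells, whereas GABA and glycine carry the lateral inhibition of horizontal and amacrine cells. AMPA, kainate and NMDA receptors are glutamate-gated cation channels, GABA-A and glycine receptors are chloride channels, and the metabotropic glutamate and GABA-B receptors act through G proteins. Each channel is assembled from several subunits, and the mixture of subunits sets its kinetics, its permeability and its drug sensitivity. Retinal bipolar cells are known for chloride channels built of GABA-A ρ subunits, which sit on their axon terminals and close slowly.

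Total estimated counts were 16.03 to 21.4 M per library (M, 1000000 counts). The target transcript, listed as Mm2pr, had 1, 1, 16.95 and 7.34 counts across controls 1 to 4, against 0, 0, 2 and 20.61 across knockdowns 1 to 4, so it does not check the group labels. The tissue label was matched by its markers: 8 rod genes summed to 35893 to 41671 CPM (counts per 1000000 counts of tested genes, with TMM scaling of edgeR, the scale of all CPM values here), and none of the rod, cone, bipolar, amacrine, horizontal, ganglion or Müller markers examined was at 0 counts in all 8 libraries. Lens markers, 11 genes, summed to 2.1 to 3.4 CPM over the controls, against 12.5 to 126 CPM over the knockdown libraries, with the highest sum in knockdown 3. Their part in the results below was not tested. In bulk tissue, fewer cells of a type and less RNA per cell cannot be told apart.

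No receptor subunit gene passed the test between the groups. Of the 51 genes, 46 had at least 1 TPM (transcripts per 1000000, computed from counts and gene lengths) in at least 4 libraries and were tested. The quasi-likelihood test of edgeR called 0 of the 46 at a Benjamini-Hochberg adjusted p under 0.05, where 10 of 16118 tested genes (0.0620%) were called (0.0434% higher and 0.0186% lower in the knockdown), and DESeq2 and limma on log2(TPM + 1) also called 0 of the 46 (0.279% and 0% of all genes). The smallest edgeR adjusted p among the members was 0.897. At an unadjusted p under 0.05 there were 4 of 46 members (8.70%), the GABA-A ρ genes Gabrr2 and Gabrr3, the GABA-A α gene Gabra4 and the NMDA receptor gene Grin2a, against 5.27% of all tested genes. Of these, Gabrr3 was higher (1 of 46, background 2.62%) and the other 3 lower (6.52%, background 2.66%). Groups without overlap in CPM were found for 2 members (4.35%, background 3.31%), Gabrr2 lower (background 1.71%) and Gabrr3 higher (background 1.60%). These shares rest on 4 members or fewer, and their distance from the background was not tested.

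Fold changes of the members were small. Negative values were found for 27 of 46 members and for 48.2% of all tested genes, and the median log2 fold change was -0.02, against 0.00 over all genes (0.00386 before rounding). The 95% interval of the fold change lay within 1.5-fold in either direction for 41 of 46 members (89.1%, background 79.7%). The narrowest intervals included those of Gabbr1 (log2 fold change -0.02, 95% interval -0.12 to 0.09) and Gria1 (log2 fold change 0.00, 95% interval -0.10 to 0.11). The 5 members whose interval reached beyond 1.5-fold were Gabra4 (-0.76 to -0.05), Gabra5 (-0.29 to 0.85), Gabrq (-0.91 to 0.37), Glra4 (-0.87 to 0.25) and Grm3 (-0.20 to 0.75). Apart from Gabra4, at 13.6 TPM, these had means of 1.06 to 2.52 TPM over the 8 libraries.

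**Figure D1:**
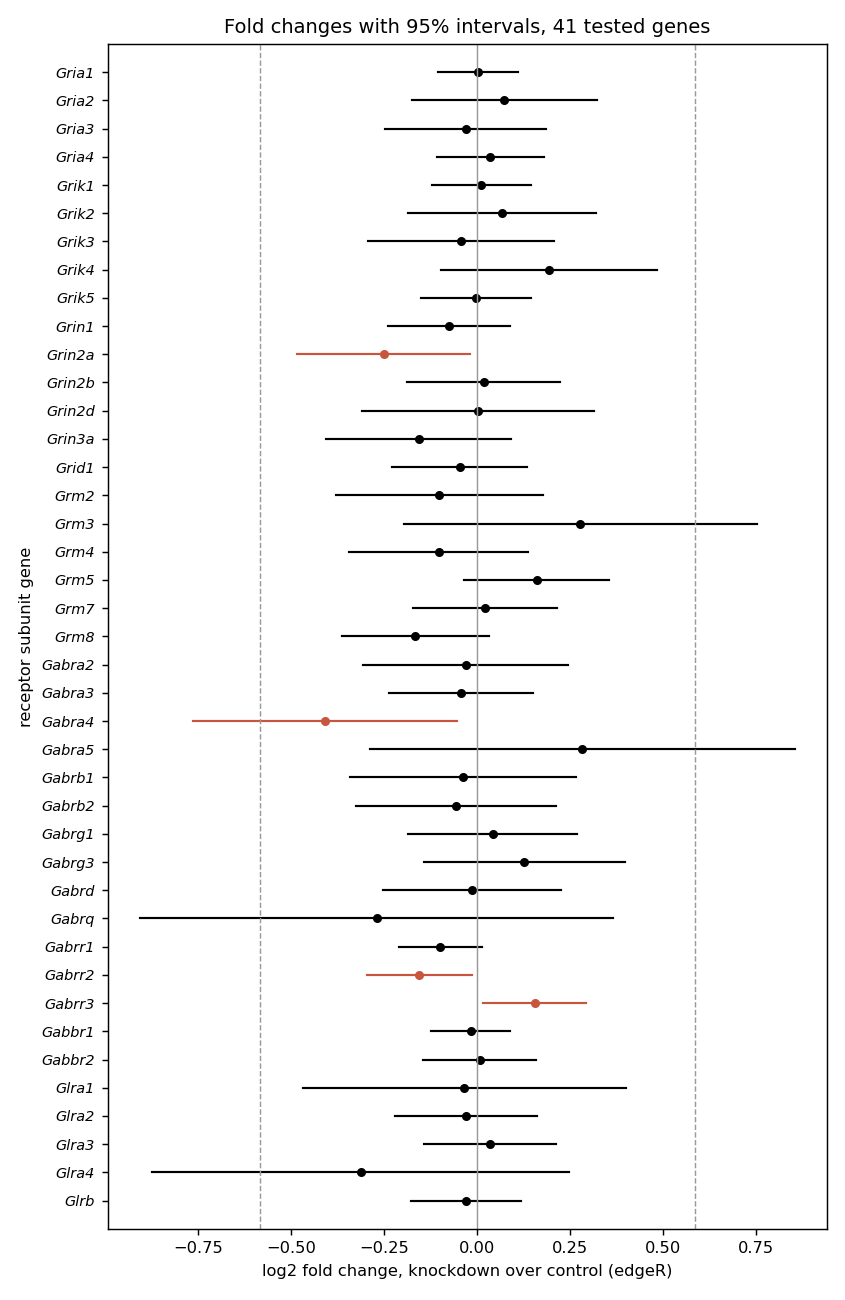
Log2 fold change (x axis, knockdown over control, edgeR) of 41 tested receptor subunit genes (y axis), with lines for 95% intervals, dashed lines at 1.5-fold and colour for the 4 genes with an unadjusted p under 0.05. The intervals of 36 of them lie between the dashed lines, and no gene passed after adjustment over all tested genes.

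The level of transcripts, compared per length as mean TPM over the 8 libraries, differed widely between members. There were 11 members at 50 TPM or more, 15 from 10 to under 50, 11 from 5 to under 10, 9 from 1 to under 5 and 5 below 1. The ρ1 gene Gabrr1 was at 89.2 TPM, the AMPA receptor gene Gria2 at 84.3, the kainate receptor gene Grik1 at 80.3, the GABA-B gene Gabbr1 at 78.8 and the glycine receptor β gene Glrb at 74.7 TPM. From Gabrr1 down to Gabbr1, each gap in this order was less than the spread over libraries (SD of Gria2 10.8 and 18.9 TPM, and of Grik1 5.02 and 8.44, control and knockdown). The 5 untested members were Grin2c and Grin3b, a pair of NMDA receptor subunit genes, and the GABA-A genes Gabra6, Gabre and Gabrp. Grin2c had 26 to 37 counts per library and Grin3b 12.06 to 29.13. Gabre had 0 to 6 counts in the controls and 1 to 14 in the knockdown libraries, Gabra6 had 3 counts in knockdown 2 and 0 elsewhere, and Gabrp had 0 in all 8, where a count of 0 allows up to 0.142 to 0.186 CPM (3 counts, counting error only).

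**Figure D2:**
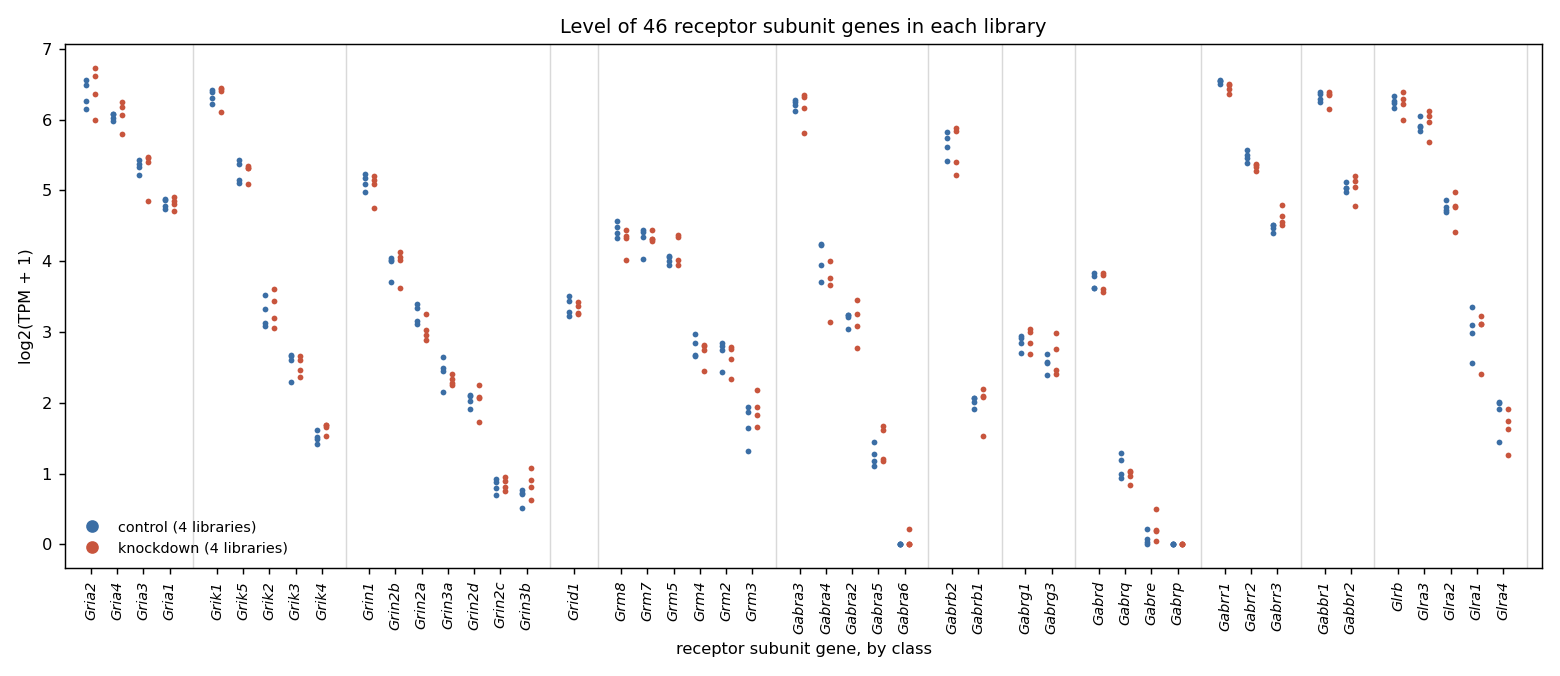
Level of 46 receptor subunit genes, the low ones included (x axis, grouped by class and ordered by level) as log2(TPM + 1) on the y axis, with 4 control points (blue) and 4 knockdown points (red) per gene. Gabrr1 has a mean of 89.2 TPM, and the points of the groups overlap for all tested genes shown but Gabrr2 and Gabrr3 on the CPM scale used in the test.

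AMPA receptor genes, which encode the fast glutamate-gated channels of OFF bipolar, horizontal, amacrine and ganglion cells, had 3 positive and 1 negative fold changes among 4 members, none with an unadjusted p under 0.05. Gria2, whose subunit makes the channel impermeable to calcium, was the highest of the class by mean TPM, though Gria4 had higher mean CPM. Gria2 had 143, 148, 124 and 119 CPM across controls 1 to 4, against 107, 131, 155 and 169 CPM across knockdowns 1 to 4. The knockdown libraries held both the lowest and the highest values, and controls 1 and 2 were above controls 3 and 4. The group means were 133 ± 14.02 CPM with the control vector and 140.3 ± 27.3 CPM with the knockdown vector (SD, n = 4), with a log2 fold change 0.07, 95% interval -0.18 to 0.32. The log2 fold change was 0.18 without knockdown 1 (edgeR unadjusted p = 0.0457) and -0.03 without knockdown 4, and it also moved by over 1.5 times without control 2, control 3, control 4 or knockdown 3. Gria4 had 141 ± 1.67 and 144 ± 15.3 CPM, Gria1 60.99 ± 1.52 and 61.1 ± 2.15 CPM and Gria3, an X-linked gene, 49.3 ± 2.66 and 48.3 ± 8.06 CPM. Gria3 had 49.97, 47.6, 52.8 and 46.8 CPM across controls 1 to 4, against 36.2, 51.4, 51.9 and 53.5 CPM across knockdowns 1 to 4. Knockdown 1 stood below the other 7 libraries in this gene. Gria2 made up 38.3% ± 2.43 of the TPM of the class in the controls and 39.2% ± 2.47 in the knockdown (SD, n = 4), and the class summed to 194 to 227 TPM over the controls, against 171 to 251 TPM over the knockdown libraries.

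The coding sequence around the pore codon of the AMPA subunits is shown because RNA editing there sets Gria2 apart from its paralogs. In Gria2 transcripts this codon is the known target of A-to-G editing by adenosine deaminases, which exchanges a glutamine for an arginine in the pore. Capitals mark the codon, and each stretch is 45 bases of 1 coding exon from GENCODE M21 transcripts on GRCm38.
Gria1: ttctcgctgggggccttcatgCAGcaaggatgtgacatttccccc
Gria2: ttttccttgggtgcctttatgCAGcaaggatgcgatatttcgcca
Gria3: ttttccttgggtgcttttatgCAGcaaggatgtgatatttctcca
Gria4: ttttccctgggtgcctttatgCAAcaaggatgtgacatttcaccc
The stretch of Gria2 lies in exon 11 of 16 on the minus strand of chromosome 3 (80706890 to 80706934), that of Gria1 in exon 11 on the plus strand of chromosome 11 (57243073 to 57243117), that of Gria3 in exon 11 on the plus strand of the X chromosome (41610244 to 41610288) and that of Gria4 in exon 12 of 17 on the minus strand of chromosome 9 (4464116 to 4464160). The genomic codon is the same in Gria1, Gria2 and Gria3, and Gria4 carries G24A relative to Gria2, counted from 1 at the 5′ end of the stretch. Both codons, CAG and CAA, encode glutamine. Gria2 and Gria3 differ at 3 of the 45 bases and Gria1 and Gria2 at 9. Gene-level counts hold no record of editing. Over whole transcripts the paralogs were well separated: 0.185% of the distinct 50-base words of Gria2 and 0% of those of Gria1 occurred in another member.

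Kainate receptor genes were split, with 3 positive and 2 negative fold changes among 5 members and none with an unadjusted p under 0.05. Grik1 (GluK1), known as the kainate subunit of OFF cone bipolar cells, had 92.2, 95.9, 101 and 90.8 CPM across controls 1 to 4, against 84.6, 98.8, 98.7 and 101 CPM across knockdowns 1 to 4. Knockdown 1 was the lowest library, and the other 7 lay between 90.8 and 101 CPM. The means were 95.05 ± 4.73 CPM with the control vector and 95.8 ± 7.52 CPM with the knockdown vector (SD, n = 4), with a log2 fold change 0.01, 95% interval -0.12 to 0.14. Grik5, a high-affinity partner subunit, had 57.2 ± 5.21 and 57.1 ± 3.07 CPM, Grik2 33.1 ± 4.45 and 34.6 ± 5.91 CPM and Grik3 17.9 ± 2.26 and 17.3 ± 2.29 CPM. Grik4, another high-affinity subunit and the lowest of the class, had 4.41, 4.81, 4.34 and 4.14 CPM across controls 1 to 4, against 5.32, 5.26, 4.4 and 5.21 CPM across knockdowns 1 to 4. Its values overlapped between the groups through knockdown 3 (edgeR unadjusted p = 0.177, adjusted p = 0.989). Grik1 and Grik5 together carried most of the class, at 60.1% and 28.3% of its TPM in the controls and 60.04% and 28.02% in the knockdown.

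NMDA receptor genes, whose channels need glutamate and a co-agonist and pass calcium, had 3 negative and 2 positive fold changes among 5 tested members. Grin1, the obligatory GluN1 subunit, had 56.7, 61.7, 61.5 and 54.7 CPM across controls 1 to 4, against 46.9, 56.9, 58.02 and 60.8 CPM across knockdowns 1 to 4. Knockdown 1 was the lowest and the other 3 knockdown libraries lay within the control range (log2 fold change -0.08, 95% interval -0.24 to 0.09). The log2 fold change was -0.0015 without knockdown 1, -0.05 without control 2 and -0.12 without knockdown 4. Grin2a, the GluN2A subunit of mature synapses (ENSMUSG00000059003; chromosome 16, 9567898 to 9995560), had 13.4, 15.8, 16.99 and 14.6 CPM across controls 1 to 4, against 11.8, 12.6, 11.7 and 14.98 CPM across knockdowns 1 to 4. Knockdown libraries 1 to 3 were below all 4 controls, and knockdown 4 lay above controls 1 and 4. Its means were 15.2 ± 1.54 CPM with the control vector and 12.8 ± 1.53 CPM with the knockdown vector (SD, n = 4), with a log2 fold change of -0.25 (SE 0.11; edgeR unadjusted p = 0.0366, adjusted p = 0.911). The unadjusted p was 0.121 without control 3 and 0.00776 without knockdown 4, and it was also above 0.05 without control 2, knockdown 1, knockdown 2 or knockdown 3. Of the 50-base words in Grin2a transcripts, 11.6% also occur, on either strand, in transcripts of genes outside the receptor families, so part of its estimated count may be less certain. Its counts were whole numbers in every library, and whether reads were shared was not tested.

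Grin2b, the GluN2B subunit, had 43.7 ± 4.08 and 44.2 ± 5.96 CPM, and the ratio of Grin2b to Grin2a TPM was 2.04, 1.64, 1.6 and 1.52 across controls 1 to 4, against 1.77, 2.13, 2.33 and 1.94 across knockdowns 1 to 4. This ratio, chosen after its values were seen, overlapped between the groups, since control 1 lay above knockdown libraries 1 and 4. Grin3a, a subunit that lowers calcium entry, had 13.9, 13.2, 15.99 and 10.8 CPM across controls 1 to 4, against 12.2, 11.3, 11.9 and 12.9 CPM across knockdowns 1 to 4, with control 3 the highest and control 4 the lowest library (log2 fold change -0.16, 95% interval -0.41 to 0.09). The log2 fold change was -0.06 without control 3 and -0.25 without control 4 (edgeR unadjusted p = 0.0342). Grin2d had 6.61 ± 0.679 and 6.62 ± 1.12 CPM. The class summed to 58.3 to 69.7 TPM over the controls, against 51.2 to 70.4 TPM over the knockdown libraries.

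The δ receptors are relatives of the ionotropic receptors that bind synaptic organizer proteins. Grid1 had 19.2, 23.3, 23.03 and 21.1 CPM across controls 1 to 4, against 20.7, 21.5, 21.9 and 19.8 CPM across knockdowns 1 to 4, overlapping throughout (log2 fold change -0.05, 95% interval -0.23 to 0.13). The metabotropic receptors had 4 negative and 3 positive fold changes among 7 members, none with an unadjusted p under 0.05. Grm8, of the group III receptors, which lower transmitter release, was the highest of the 7 metabotropic members by mean TPM (19.7, against 19.1 for Grm7). This gap was less than the SD of Grm8 over libraries (1.59 and 2.44 TPM, control and knockdown). Grm8 had 28.1, 24.7, 30.5 and 27.8 CPM across controls 1 to 4, against 21.03, 25.4, 26.9 and 25.7 CPM across knockdowns 1 to 4. Knockdown 1 was the lowest, and the other knockdown libraries lay inside the control range (edgeR unadjusted p = 0.0944, adjusted p = 0.951). Its log2 fold change was -0.17 with all libraries and -0.09 without knockdown 1, and it was -0.22 without control 2 (edgeR unadjusted p = 0.0394).

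Grm5, a group I receptor coupled to phospholipase C, had 27.1, 28.2, 28.8 and 27.3 CPM across controls 1 to 4, against 27.4, 27.6, 34.3 and 35.3 CPM across knockdowns 1 to 4. Knockdown libraries 3 and 4 were above every other library, and knockdown libraries 1 and 2 lay within the control range. The means were 27.8 ± 0.785 CPM with the control vector and 31.1 ± 4.23 CPM with the knockdown vector (SD, n = 4), with a log2 fold change 0.16, 95% interval -0.03 to 0.36 (edgeR unadjusted p = 0.0988, adjusted p = 0.951). Its log2 fold change was 0.22 without knockdown 1 (edgeR unadjusted p = 0.0225), 0.22 without knockdown 2 (edgeR unadjusted p = 0.0403) and 0.09 without knockdown 4. Of group II, which inhibits adenylyl cyclase, Grm2 had 10.6 ± 1.31 and 9.89 ± 1.46 CPM and Grm3 2.59, 3.17, 3.54 and 1.92 CPM across controls 1 to 4, against 3.28, 4.32, 3.41 and 2.63 CPM across knockdowns 1 to 4. Grm3 rested on 39 to 83 counts per library, and its interval of -0.20 to 0.75 did not exclude a change of 1.5-fold upward. The log2 fold change of 0.28 was 0.14 without control 4 and 0.14 without knockdown 2. Grm7 had 23.97 ± 2.74 and 24.3 ± 1.12 CPM and Grm4 11.1 ± 1.04 and 10.3 ± 1.13 CPM.

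The GABA-A α, β and γ subunits, from which synaptic GABA-A receptors are assembled, had 6 negative and 5 positive fold changes among 11 tested members. Gabra3, an X-linked gene, had 53.1 ± 3.79 and 51.5 ± 7.19 CPM, Gabrb2 30.8 ± 3.12 and 29.7 ± 6.07 CPM, Gabra2 19.2 ± 1.75 and 18.8 ± 3.72 CPM, Gabrb1 16.98 ± 0.714 and 16.5 ± 3.78 CPM, Gabrg1 12.1 ± 1.16 and 12.4 ± 1.2 CPM and Gabrg3 19.3 ± 1.72 and 21.1 ± 4.25 CPM. Gabrd, the δ subunit of extrasynaptic receptors, had 10.2, 8.55, 8.87 and 10.4 CPM across controls 1 to 4, against 8.82, 10.1, 8.49 and 10.2 CPM across knockdowns 1 to 4, without separation of the groups. The θ gene Gabrq had 0.94 ± 0.196 and 0.776 ± 0.105 CPM.

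Gabra4 (ENSMUSG00000029211; chromosome 5, 71569749 to 71658308), the α4 subunit often found in extrasynaptic receptors, had the smallest p among the members. It had 11.6, 16.9, 17.5 and 14.5 CPM across controls 1 to 4, against 7.96, 11.3, 11.9 and 14.4 CPM across knockdowns 1 to 4. Knockdown 1 was below all other libraries, knockdown libraries 2 and 3 lay near control 1, and knockdown 4 lay near control 4. Its means were 15.1 ± 2.67 CPM with the control vector and 11.4 ± 2.64 CPM with the knockdown vector (SD, n = 4), a log2 fold change of -0.41 (SE 0.16; edgeR unadjusted p = 0.0268, adjusted p = 0.897). Without knockdown 1 the log2 fold change was -0.27 (unadjusted p = 0.0671), and the unadjusted p was also above 0.05 without control 2, control 3 or knockdown 2. The gene lies in a cluster of 4 GABA-A genes on chromosome 5 (70751047 to 72149037, GRCm38) with Gabra2, Gabrb1 and Gabrg1, and its span overlaps that of the opposite-strand gene Gabrb1 at their 5′ ends. Of the 50-base words in the transcripts of Gabra4 and of Gabrb1, 0% occurred in another gene on either strand. Shorter overlaps were not examined. Knockdown 1 was the lowest of 8 libraries in 3 of the 4 genes of the cluster, at 14.4 CPM for Gabra2 and 11.02 CPM for Gabrb1, against 17.7 to 23.3 and 17.6 to 19.6 CPM in the other knockdown libraries. Gabra5, the α5 subunit gene, with 25 to 43 counts per library, had 1.22, 1.49, 1.37 and 1.92 CPM across controls 1 to 4, against 2.31, 1.41, 2.29 and 1.34 CPM across knockdowns 1 to 4, high in knockdown libraries 1 and 3. Its log2 fold change of 0.28 was 0.15 without knockdown 1 and 0.16 without knockdown 3. The span of Gabra5 overlaps that of a gene on the opposite strand. Of the 50-base words of its transcripts, 3.59% occurred in other genes on either strand, and 0% in another member. Whether reads were shared was not tested beyond this.

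The ρ subunit genes had the only members whose groups did not overlap in CPM, in opposite directions, though none passed after adjustment. Gabrr1 (ρ1), the main subunit of the class at 89.2 TPM, had 82.2, 84.1, 86.2 and 88.9 CPM across controls 1 to 4, against 82.4, 81.7, 81.02 and 73.7 CPM across knockdowns 1 to 4. Knockdown 4 was the lowest library, and knockdown 1 lay just above control 1. Gabrr2 (ρ2; chromosome 4, 33062999 to 33095865) had 31.3, 33.4, 32.7 and 31.3 CPM across controls 1 to 4, against 30.1, 29.3, 26.96 and 29.2 CPM across knockdowns 1 to 4. All 4 knockdown values were below all 4 control values. Gabrr3 (ρ3; chromosome 16, 59407332 to 59464504) had 36.2, 36.7, 37.9 and 35.99 CPM across controls 1 to 4, against 39.2, 41.0, 45.2 and 38.3 CPM across knockdowns 1 to 4. Here all 4 knockdown values were above the controls, with knockdown 3 the highest. In TPM the groups of Gabrr3 overlapped, with 21.7 in knockdown 1, against 20.1 to 21.8 over the controls.

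The means of Gabrr2 were 32.2 ± 1.07 CPM with the control vector and 28.9 ± 1.33 CPM with the knockdown vector (SD, n = 4), with a log2 fold change of -0.15 (SE 0.07; edgeR unadjusted p = 0.0342, adjusted p = 0.911). Those of Gabrr3 were 36.7 ± 0.847 CPM with the control vector and 40.9 ± 3.07 CPM with the knockdown vector (SD, n = 4), with a value of 0.16 (log2 scale, SE 0.06; edgeR unadjusted p = 0.0306, adjusted p = 0.903). Gabrr1 had 85.4 ± 2.87 CPM with the control vector and 79.7 ± 4.07 CPM with the knockdown vector (SD, n = 4) and a log2 fold change of -0.10 (edgeR unadjusted p = 0.0781, adjusted p = 0.939). Without knockdown 3 the log2 fold change of Gabrr3 was 0.11 (unadjusted p = 0.118) and that of Gabrr2 -0.12 (0.0948). The unadjusted p also passed 0.05 without control 1, control 2, control 4 or knockdown 2 for Gabrr3 and without control 2, control 3, knockdown 2 or knockdown 4 for Gabrr2. Knockdown 3 had the highest lens marker sum, and the part of that in these values was not tested. Without knockdown 4 the log2 fold change of Gabrr1 was -0.06, against -0.10 with it, and it was -0.12 without knockdown 1 (edgeR unadjusted p = 0.0491).

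Within a library, the ratio of Gabrr1 to Gabrr3 TPM was 4.24, 4.29, 4.25 and 4.62 across controls 1 to 4, against 3.93, 3.72, 3.35 and 3.6 across knockdowns 1 to 4. The ratio of Gabrr2 to Gabrr3 was 2.03, 2.14, 2.02 and 2.04 across controls 1 to 4, against 1.8, 1.68, 1.4 and 1.79 across knockdowns 1 to 4. Both ratios were lower in every knockdown library than in every control. This follows from the CPM ranges of the single genes given above, so the ratios add no separate evidence. The ratio of Gabrr1 to Gabrr2 was 2.09, 2.002, 2.1 and 2.27 across controls 1 to 4, against 2.18, 2.22, 2.39 and 2.01 across knockdowns 1 to 4, and the groups overlapped. These ratios were chosen after the values were seen and are given with no test. The share of Gabrr3 in the TPM of the class was 13.5% ± 0.327 in the controls and 15.9% ± 1.08 in the knockdown (SD, n = 4). Beside these values, the 8 bipolar cell markers had 8 positive and 0 negative fold changes, with a median of 0.05 and none with an unadjusted p under 0.05, and their summed levels were 1434 to 1514 CPM over the controls, against 1475 to 1534 CPM over the knockdown libraries. Their part in the ρ values was not tested.

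**Figure D3:**
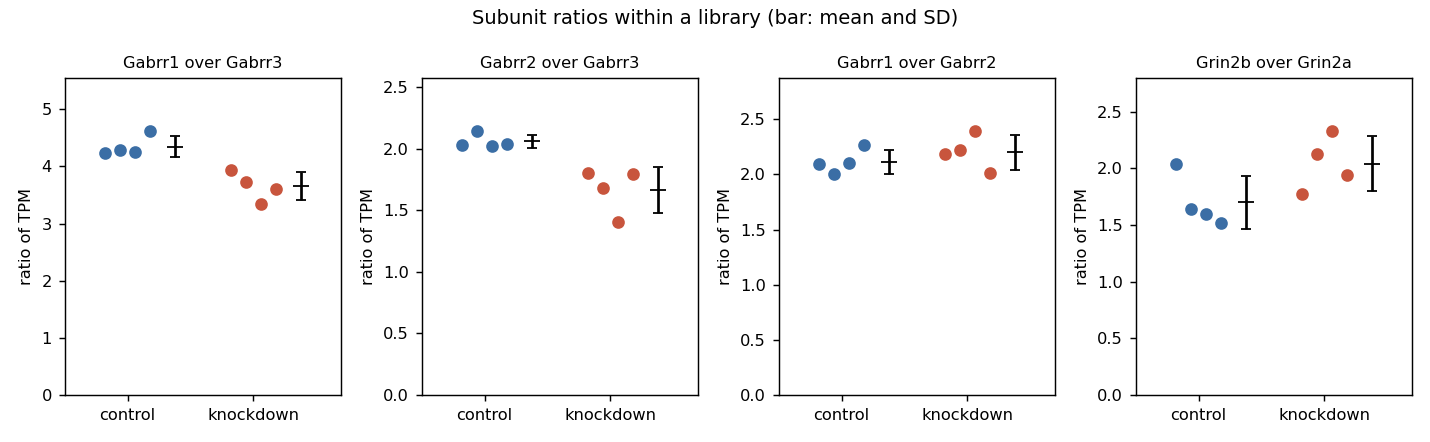
Ratio of TPM (y axis) of Gabrr1 to Gabrr3, Gabrr2 to Gabrr3, Gabrr1 to Gabrr2 and Grin2b to Grin2a in each control (blue) and knockdown (red) library, with bars for mean and SD of 4 libraries. The ratios to Gabrr3 are lower in every knockdown library than in every control, which follows from the ranges of the single genes. The other ratios overlap between the groups.

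The coding sequence of the pore-lining segment of the ρ subunits is shown because paralogs this alike could share reads. Capitals mark the bases at which the 3 genes are not all the same, and each stretch is 48 bases of 1 coding exon from GENCODE M21 transcripts on GRCm38.
Gabrr1: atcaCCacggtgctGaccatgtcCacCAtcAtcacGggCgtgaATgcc
Gabrr2: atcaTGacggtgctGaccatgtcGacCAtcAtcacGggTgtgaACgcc
Gabrr3: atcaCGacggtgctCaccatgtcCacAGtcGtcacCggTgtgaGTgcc
The stretches lie in exon 9 of 10 of Gabrr1 (chromosome 4, 33161632 to 33161679), exon 8 of 9 of Gabrr2 (chromosome 4, 33085548 to 33085595) and exon 8 of 9 of Gabrr3 (chromosome 16, 59447926 to 59447973), all on the plus strand. Gabrr1 and Gabrr2, neighbours on chromosome 4, differ at 5 of the 48 bases, and Gabrr3 differs from them at 8 and 9. Of the 50-base words of their transcripts, 2.55% of Gabrr1 and 2.77% of Gabrr2 occurred in another member, the highest shares among the 51 genes, and 0% of Gabrr3. All 3 genes had whole-number counts in all 8 libraries.

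GABA-B and glycine receptor genes showed no separation of the groups. Gabbr1, the GABA-binding subunit of the GABA-B receptor, had 171, 172, 165 and 165 CPM across controls 1 to 4, against 154, 175, 167 and 169 CPM across knockdowns 1 to 4. Gabbr2, the subunit that couples to the G protein, had 74.2 ± 2.32 and 74.5 ± 8.21 CPM (log2 fold change 0.01, 95% interval -0.14 to 0.16). Glrb, the β subunit that anchors glycine receptors to gephyrin, had 90.5, 84.5, 98.3 and 96.3 CPM across controls 1 to 4, against 79.8, 94.2, 99.1 and 89.3 CPM across knockdowns 1 to 4 (log2 fold change -0.03, 95% interval -0.18 to 0.12). Knockdown 1 was the lowest library in Gabbr1, Gabbr2, Glrb and all 4 glycine receptor α genes.

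The α3 gene Glra3, a subunit of narrow-field amacrine cell synapses, was the highest of the α genes at 60.7 TPM and had 35.7 ± 2.53 and 36.6 ± 3.86 CPM, and Glra2 had 33.5 ± 1.37 and 32.8 ± 4.36 CPM. Glra2 was at 26.0 TPM, and this wider gap in TPM comes from the gene lengths used, 1474 bases for Glra3 and 3150 for Glra2. Glra1, the α1 subunit, had 5.86 ± 1.32 and 5.72 ± 1.37 CPM, and its level in knockdown 1, 3.71 CPM, lay below the 6.14 to 6.79 CPM of the other knockdown libraries. Glra4, with 20 to 48 counts per library, had 1.27, 2.16, 2.26 and 2.12 CPM across controls 1 to 4, against 1.08, 1.72, 1.98 and 1.54 CPM across knockdowns 1 to 4, low in control 1 and knockdown 1 (edgeR adjusted p = 0.989). Its log2 fold change of -0.31 was -0.47 without control 1 and -0.17 without knockdown 1. The class summed to 166 to 177 TPM over the controls, against 139 to 189 TPM over the knockdown libraries.

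**Figure D4:**
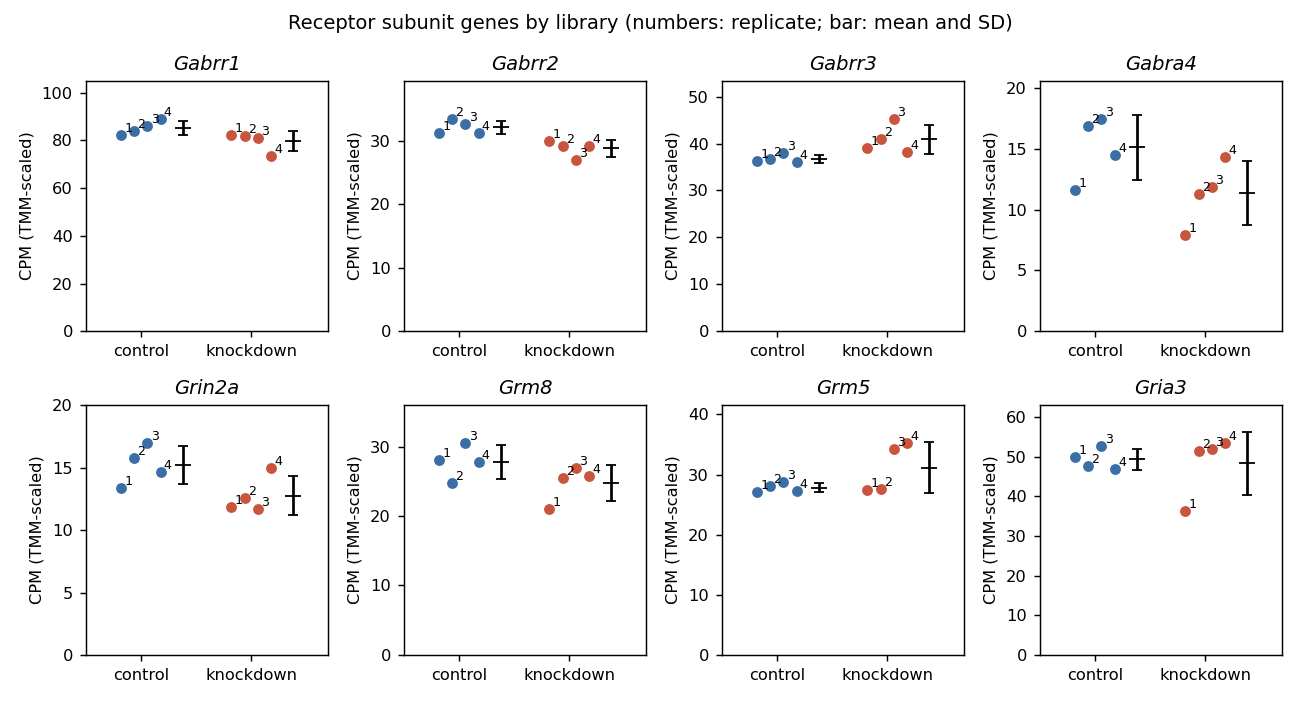
TMM-scaled CPM (y axis, from 0) of 8 receptor subunit genes in each control (blue) and knockdown (red) library, numbered by replicate, with bars for mean and SD of 4 libraries. Gabrr2 and Gabrr3 are the genes whose groups do not overlap, in opposite directions, and knockdown 1 is the lowest library in Gabra4, Grm8 and Gria3.

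Knockdown 1 stood apart from the other libraries in many receptor genes. It was the lowest of the 8 libraries in 27 of 46 tested members (58.7%), against 18.5% of all 16118 tested genes. No other library was the lowest in more than 7 members. It was below each of the other 3 knockdown libraries in 31 members, and its median difference from their mean was -15.3%. Receptor subunits took 0.186% of its counts, and 0.206% to 0.224% of those of the other 7 libraries. By class, knockdown 1 was the lowest in 4 of 4 AMPA, 5 of 5 glycine, 2 of 2 GABA-B and 4 of 5 tested GABA-A α genes. It was the lowest in 1 of 5 kainate and 0 of 3 ρ genes. The mean deviation from the mean of the 8 libraries, on the log2(CPM + 0.5) scale, was -0.34 in glycine, -0.25 in AMPA and -0.24 in NMDA receptor genes. It was -0.04 in kainate receptor genes and -0.00064 in ρ genes. Across the 46 genes the lowest values relative to the other knockdown libraries were those of Glra1, -42.0% from their mean, Gabrb1, -40.0%, and Glra4, -38.4%. Gabra5 at 37.7% and Grik3 at 15.9% lay on the other side.

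Marker lists of retinal cells also stood apart in knockdown 1. The 11 amacrine cell markers had a mean deviation of -0.26 in knockdown 1 and -0.01 to 0.12 in the other 7 libraries, and their summed level was 1276 to 1569 CPM over the knockdown libraries, against 1466 to 1552 CPM over the controls. The 12 ganglion cell markers had -0.19 in knockdown 1 and -0.11 to 0.14 elsewhere, with sums of 1395 to 1709.8 CPM over the knockdown libraries, against 1645 to 1815 over the controls. The 10 Müller glia markers had 0.20 and -0.09 to 0.03, with sums of 5286 to 5952 CPM over the knockdown libraries, against 5419 to 5890.2 over the controls. The 8 bipolar markers had 0.04 and -0.07 to 0.04, and the 8 rod markers 0.03 and -0.11 to 0.07. The part of cell composition in the receptor values was not tested. Without knockdown 1, 14 of 46 members had negative fold changes in place of 27, the median log2 fold change was 0.04, and 0 were called in edgeR (5 of 46 at an unadjusted p under 0.05, against 1274 of 15973 tested genes without that library). Gabrr2 and Gabrr3 had log2 fold changes of -0.17 and 0.18 without it (edgeR unadjusted p = 0.0245 and 0.0217), at least as large as with it.

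**Figure D5:**
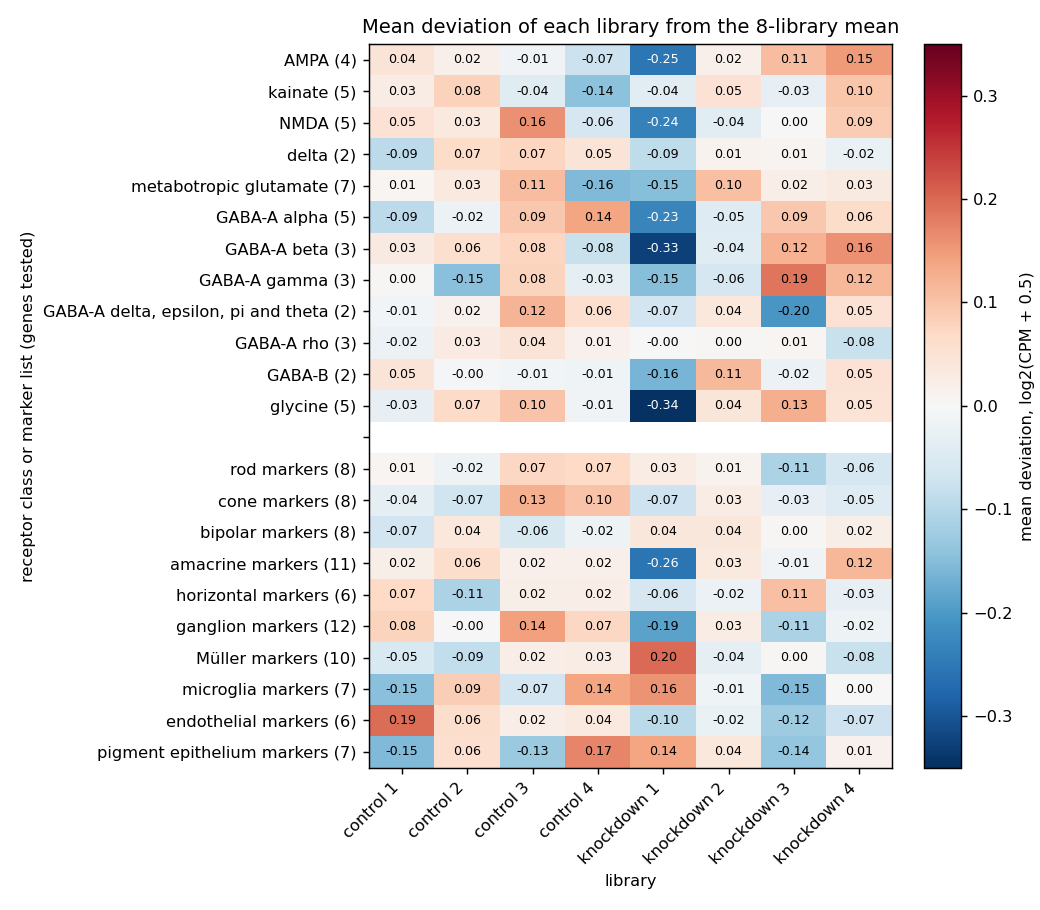
Mean deviation of each library (x axis) from the mean of all 8 on the log2(CPM + 0.5) scale, for receptor classes and retinal cell marker lists (y axis, number of tested genes in parentheses). Knockdown 1 is at -0.34 in glycine, -0.25 in AMPA and -0.26 in amacrine genes, and near 0 in ρ genes.

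Genes whose products work with the receptors gave 1 call. Of all tested genes, 0.0620% were called, 5.27% had an unadjusted p under 0.05 (2.66% lower, 2.62% higher) and 48.2% had negative fold changes. Of 14 auxiliary subunits of AMPA and kainate receptors, 0 were called in edgeR, 2 were lower at an unadjusted p under 0.05 and 7 had negative fold changes (median -0.01). The smallest p was that of Cacng3 at 43.9 ± 1.31 and 39.8 ± 1.7 CPM (edgeR adjusted p = 0.899), which encodes a transmembrane AMPA receptor regulatory protein. Of 18 excitatory postsynaptic scaffold genes, 0 were called, 0 had an unadjusted p under 0.05 and 14 had negative fold changes (median -0.05), with the smallest p for the vesicle fusion and AMPA receptor trafficking ATPase gene Nsf at 619.7 ± 16.6 and 578 ± 26.3 CPM (edgeR adjusted p = 0.936). Of 10 inhibitory scaffold and GABA-B partner genes, 0 were called and 0 had an unadjusted p under 0.05 (median -0.02), with the smallest p for Kctd8 at 29.2 ± 1.75 and 30.9 ± 0.736 CPM (edgeR adjusted p = 0.989), an auxiliary subunit of GABA-B receptors. Of 17 synaptic organizers, 0 were called, 2 were lower and 1 was higher at an unadjusted p under 0.05 (median -0.06), and the smallest p was that of the neuronal pentraxin receptor gene Nptxr at 78.5 ± 6.44 and 66.97 ± 7.29 CPM (edgeR adjusted p = 0.779). Of 19 genes of transmitter synthesis, uptake and vesicle loading, 1 was called, 2 were lower at an unadjusted p under 0.05 and 12 had negative fold changes (median -0.05). The called gene, lower in the knockdown, was the vesicular glutamate transporter gene Slc17a6 at 118 ± 7.4 and 86.9 ± 9.05 CPM (edgeR adjusted p = 0.0465). Slc17a6 also stands among the 12 ganglion cell markers, of which 11 had negative fold changes (background 48.2%) and 5 an unadjusted p under 0.05 (background 5.27%), and the part of ganglion cell number in its level was not tested. Over all genes, edgeR made 0 calls without control 1, control 2, knockdown 2, knockdown 3 or knockdown 4. In all 5 lists knockdown 1 had the lowest mean deviation of the knockdown libraries, from -0.13 to -0.03 on the log2(CPM + 0.5) scale.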

How the data were processed

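The labels give 8 mouse retinal libraries, 4 control and 4 knockdown, from total RNA extracted with TRIzol and read on an Illumina NovaSeq X Plus instrument, per the labels' protocols. The authors' deposited gene table, although its name says TPM, was read as estimated counts, because its values were whole numbers in 90.6% to 91.9% of genes and column totals were unequal. The submitters' processing notes list Bowtie 0.12.2 and mm9 without saying what each was used for. How genes were counted, whether strand was used and from which annotation is not given in the sources used here, and 2 columns of group means were not used.

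TPM values came from counts and the table's gene lengths. After rounding of counts, 16118 genes reaching 1 TPM in 4 or more libraries were tested with edgeR 4.0.16 (quasi-likelihood F-test, R 4.3.3), with TMM scaling and the group as the only term, and counted as called below an adjusted p of 0.05 (Benjamini-Hochberg over all tested genes). The SE was the size of the log2 fold change divided by the square root of F, and 95% intervals use it with 13.6 degrees of freedom. The test was tried on simulated data. Alternatives were DESeq2 1.42.0, limma 3.58.1 on log2(TPM + 1), log2(TPM + 0.1) and log2(TPM + 5), other filters, a robust dispersion, a replicate block and each library left out. Positions, coding stretches and shared 50-base words come from GENCODE M21 on GRCm38, in which all 51 members were found by identifier. That is not the build named by the submitters, and no coordinates of the table were used. Protein sequences were not used here.

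Some of the receptor genes are not reported here. Members and gene lists were chosen with earlier results of these data known. Values are given in every library for called members, the 12 with the smallest p, those without overlap between groups and the highest of each class by TPM, where that member is reported. Of each list of partners, the gene with the smallest p is given by its group means and SD. Gria3 and the ratios were chosen after their values were seen.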

Additional observations from a re-analysis of the deposited data

Results flagged for a closer look

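In 8 of 92 sets of 4 libraries (46 genes in 2 groups), 1 library lay far from the other 3 relative to the range of its group, by Dixon's criterion at the 95% level. Chance alone gives about 1 in 20 such sets. Gria3 was at 36.2 CPM in knockdown 1, outside the 51.4 to 53.5 CPM of the rest of its group. Grik1 was at 84.6 CPM in knockdown 1, outside the 98.7 to 101 CPM of the rest of its group. Grik4 was at 4.4 CPM in knockdown 3, outside the 5.21 to 5.32 CPM of the rest of its group. Gabra2 was at 16.6 CPM in control 2, outside the 19.7 to 20.4 CPM of the rest of its group. Gabrg1 was at 10.3 CPM in control 2, outside the 12.4 to 12.8 CPM of the rest of its group. Gabrq was at 0.62 CPM in knockdown 3, outside the 0.807 to 0.843 CPM of the rest of its group. Gabrr1 was at 73.7 CPM in knockdown 4, outside the 81.02 to 82.4 CPM of the rest of its group. Glra4 was at 1.27 CPM in control 1, outside the 2.12 to 2.26 CPM of the rest of its group.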

How the results depend on the processing

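The count of 0 called receptor subunit genes in edgeR was also 0 in each of the 16 alternatives, DESeq2 and limma included. The number at an unadjusted p under 0.05, 4 of 46, was 2 with limma on log2(TPM + 1), 2 with log2(TPM + 0.1) and 2 with log2(TPM + 5), and 1 to 5 when each library was left out. It was 1 without control 2, control 3, knockdown 2 or knockdown 3. Over all tested genes the number was 817 of 15948 without control 2 and 766 of 15973 without control 3. It was 937 of 15960 without knockdown 2 and 583 of 15944 without knockdown 3. Over all genes the 10 calls became 45 with DESeq2, 157 with no expression filter, 1 with a mean TPM of at least 5, 0 with limma on log2(TPM + 1), 0 with log2(TPM + 5), 0 with a robust dispersion, and 0 to 57 when each library was left out (57 without control 3). The cause was not tested. Of 299 recomputed fold changes of 19 named genes, 286 kept their direction and none became called. Those that turned sign had values near 0: with each library left out the ranges were -0.031 to 0.18 for Gria2, -0.017 to 0.067 for Grik1, -0.060 to 0.031 for Gabrd, -0.041 to 0.018 for Gabbr1 and -0.074 to 0.027 for Glrb. Counts chosen after seeing the data ranged, with each library left out, from 14 (without knockdown 1) to 36 (without knockdown 4) for negative fold changes, from 40 to 42 for intervals within 1.5-fold and from 2 to 5 (without control 1) for groups without overlap. Smaller groups separate more easily, and the share of all genes without overlap was not computed for these settings. The count of 5 therefore cannot be set against the background of the full set. The replicate block gave 11 calls over all genes, 0 members called and 3 members at an unadjusted p under 0.05. Same-numbered libraries did not deviate together (correlations of deviations from the group means -0.16 to 0.0087). These correlations cannot exclude that the numbers pair libraries, since noise between libraries can hide a pairing. Depth limits Grm3, Gabra5, Gabrq and Glra4, whose intervals are the widest.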
